A study of Homo sapiens with 12 samples.

Results

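The distal end of the long arm of chromosome 17, from 72000001 to 81195210 (hg19, the last 9.20 Mb of the chromosome), was examined for binding of FoxK1 in HepG2, an established human liver cancer line that serves as a hepatocyte model. Every deposited peak with its summit in this stretch was taken, 2772 peaks from 6 libraries out of 223205 in all. Peaks sharing at least 1 bp were merged, which gave 723 regions of the 68127 in the genome and left 2917 regions on the rest of chromosome 17. Cells of both groups had been kept without serum for 16 h. FoxK1 was then immunoprecipitated from cells that received 100 nM insulin for 20 min (3 libraries) or no treatment (3 libraries). All libraries came from this 1 cell line, and the labels do not say whether the replicates were separate cultures, so the p-values below measure only the spread between these libraries. The boundary passed through no peak. The nearest peak outside ended 66573 bp before it and the first peak inside began 20944 bp after it.

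FoxK1 is a winged-helix transcription factor of the forkhead family, which binds a short A/T-rich core and can recruit corepressor complexes. In liver cells insulin signalling is known to move FoxK1 into the nucleus while it sends FoxO factors, which recognise related sites, out of it. The end of the long arm of chromosome 17 is known to carry many housekeeping and metabolic genes, among them those for fatty acid synthase (FASN), the adaptor GRB2, the mTOR partner RPTOR and the FoxK1 paralogue FOXK2. The gene table used here is on another genome build than the peaks, so no region below is assigned to a gene, no gene density was measured, and no DNA sequence is shown.

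FoxK1 peaks were packed about 2 times as densely here as on the rest of chromosome 17, in each library. Insulin replicates 1, 2 and 3 had 65.4, 58.4 and 41.2 peaks per Mb in the stretch and 30.9, 29.5 and 16.8 on the rest of the chromosome. Untreated replicates 1, 2 and 3 had 51.8, 46.4 and 38.3 per Mb in the stretch and 27.2, 21.0 and 17.25 outside it. The lowest density in the stretch, that of untreated replicate 3, was above the highest density outside it. The ratio was 2.12, 1.98 and 2.45 after insulin and 1.90, 2.21 and 2.22 without it, a mean log2 ratio of 1.10 ± 0.13 (SD, n = 6) that was positive in 6 of 6 libraries (two-sided exact sign-flip permutation p = 0.03125, the smallest that 6 libraries allow). With Benjamini-Hochberg adjustment over 8 comparisons of the stretch with the rest, this exact p became 0.05, which does not fall below 0.05. The stretch was already known to be dense when it was chosen, so the density is a description of it.

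**Figure D1:**
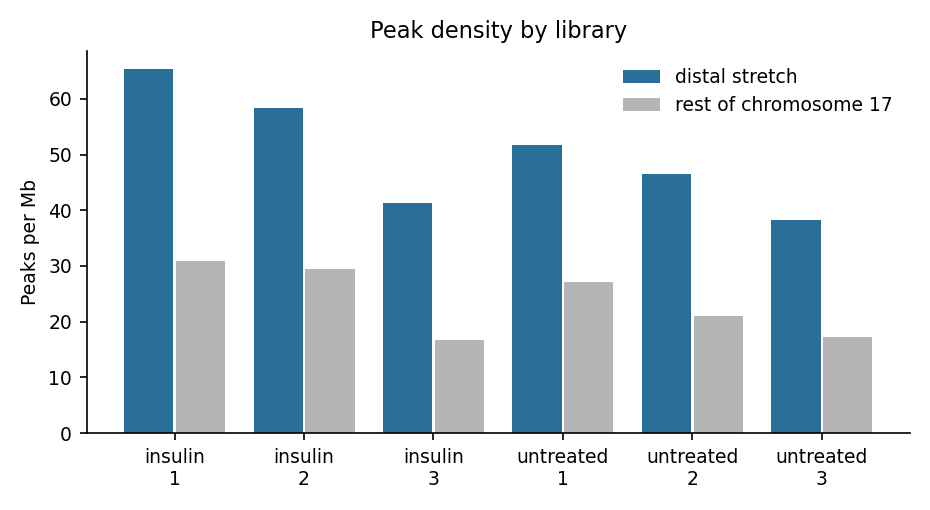
Peaks per Mb (y axis) in each of the 6 libraries (x axis), blue bars for the distal stretch and grey bars for the rest of chromosome 17. The stretch bars run from 38.3 to 65.4 peaks per Mb and the others from 16.8 to 30.9, so every blue bar is taller than every grey one.

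Regions called in all 6 libraries, termed shared regions here, followed the same pattern. The stretch makes up 11.3% of the length of the chromosome and held 228 of its shared regions, or 22.2%. Their density was 24.8 per Mb, against 11.1 per Mb on the rest of the chromosome, a ratio of 2.23. The ratio was 1.76 where each library had to cover at least 50% of a region and 4.26 against all other sequence of chromosomes 1 to 22 and X, counted over 1 Mb windows with any region. With the rest of chromosome 17 counted over such windows alone it was 2.11. Neighbouring shared regions lay a median of 17544 bp apart in the stretch and 27904 bp apart outside it. Shared regions covered 3.42% of the stretch and 1.44% of the rest.

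Density was uneven along the stretch. The 9 full windows of 1 Mb held between 14 and 39 shared regions, with a median of 24, and all 9 were above 10, the median of the 68 windows outside that held any region. The window from 73000001 to 74000000 had 39, that from 79000001 to 80000000 had 36 and that from 80000001 to 81000000 had 31. Such windows were not found in this stretch alone, since windows at 41000001 to 42000000 and 7000001 to 8000000 had 36 and 32. In windows of 100 kb the highest count was 8 shared regions, at 79900001 to 80000000. The window from 80200001 to 80300000 had 7, and a further 8 windows had 6 each. The 18 windows with 5 or more shared regions were 19.6% of the stretch and held 45.2% of its shared regions.

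Between the clusters were long stretches without a shared region. The longest ran from 77071438 to 77706584 (635 kb) and held 11 regions, none of them called in more than 4 libraries. The next were 75508668 to 75931003 (422 kb), with 5 regions of fewer libraries, and 78647941 to 79008367 (360 kb), with 16. Of the 92 windows of 100 kb, 18 had no shared region and 5 had no region of any kind. The last peak of any library ended 85073 bp short of the end of the chromosome.

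**Figure D2:**
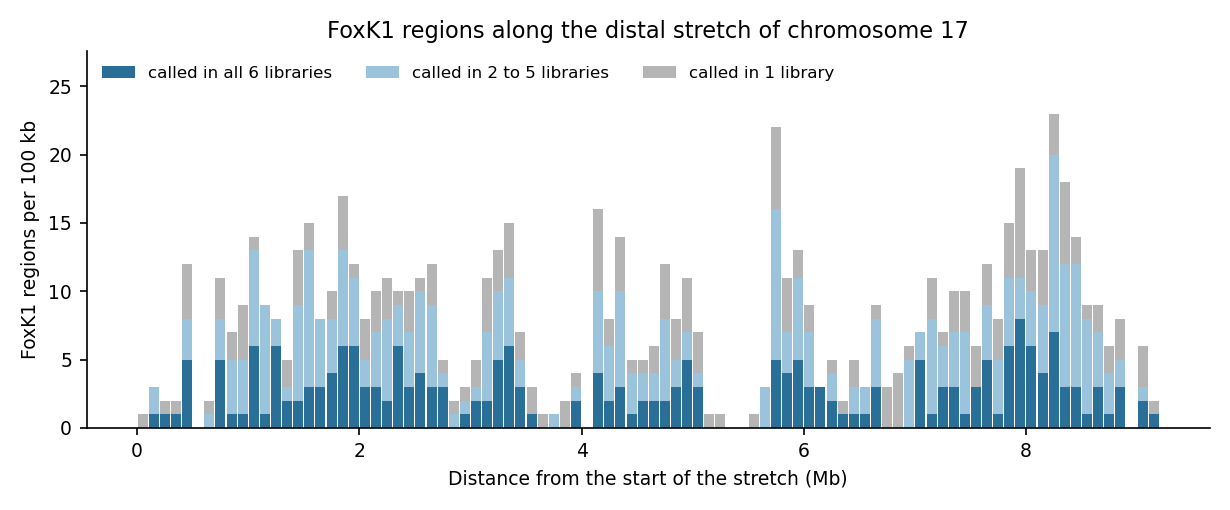
Number of regions per 100 kb (y axis) along the stretch, by distance from its start in Mb (x axis), stacked by the number of libraries that called them. Dark blue marks the 228 regions of all 6 libraries; they reach 8 per window near 7.9 Mb, and the longest run of windows without dark blue lies between 5 and 6 Mb.

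Of the 723 regions, 195 were called in 1 library, 77 in 2, 80 in 3, 73 in 4, 70 in 5 and 228 in 6. The shared class was 31.5% (95% Wilson interval 28.3% to 35.0%, counting error only), against 27.4% (25.8% to 29.0%) on the rest of chromosome 17. Regions are not replicates, so the intervals do not test the difference. The difference of 4.14 percentage points turned to -1.11 where each library had to cover at least 50% of a region. Strength went with the number of libraries. The median region of 1 library stood at the 12.1st percentile of the −log10 q (the authors' significance of a peak) in its list, that of 3 libraries at a mean of 31.5 and that of 6 libraries at a mean of 76.8. The corresponding values outside the stretch were 12.5, 31.1 and 75.8. Each list ends at a cut. The authors' smallest −log10 p, before adjustment, was between 3.002 and 3.005 in every list, so regions of 1 library include weak calls. A weak peak more readily misses the cut in another library, so this rise with the number of libraries is in part by construction. Shared regions had a median width of 1205 bp here and 1103 bp outside, against 344 and 341 bp for regions of 1 library. A region spans all its merged peaks, so width grows with the number of libraries in part by construction.

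Peaks of the stretch were based on more fragments and stood on a higher background than those of the rest of chromosome 17. Each summit's fragment number and local background were solved for from 2 deposited values, the fold and the −log10 p. The median background was 5.41, 8.68 and 4.61 fragments in the stretch against 4.65, 7.32 and 4.01 outside it in insulin replicates 1, 2 and 3. In untreated replicates 1, 2 and 3 it was 13.9, 10.6 and 5.75 against 11.0, 9.30 and 5.04. It was higher in the stretch in 6 of 6 libraries, by a mean log2 ratio of 0.23 ± 0.06 (SD, n = 6; exact sign-flip permutation p = 0.03125, adjusted 0.05). The median number of fragments at the summit was also higher in 6 of 6 libraries, at 35, 53 and 26 against 31, 42 and 25 after insulin and 65.5, 44 and 29 against 52, 40 and 26 without it. Its mean log2 ratio was 0.20 ± 0.11 (SD, n = 6, exact sign-flip permutation p = 0.03125, adjusted 0.05). A peak on a higher background needs more fragments to be called, so this is not a separate result from the background. Peaks were also wider in the stretch in 6 of 6 libraries, with medians of 479, 633 and 509 bp against 449, 588.5 and 489 bp after insulin and of 576, 595 and 518.5 bp against 553, 556 and 485 bp without it. Their mean log2 ratio was 0.08 ± 0.02 (SD, n = 6; exact sign-flip permutation p = 0.03125, adjusted 0.05).

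The mean differences of the 2 measures of peak strength had opposite signs, and neither passed its test with all peaks. The median within-list percentile of −log10 q was 54.7, 57.7 and 54.6 in the stretch against 53.1, 51.6 and 56.8 outside it after insulin. Without insulin it was 62.2, 56.8 and 57.4 against 55.3, 52.6 and 54.8. It was higher in the stretch in 5 of 6 libraries, the exception being insulin replicate 3. The mean difference was 3.19 ± 3.31 percentile points (SD, n = 6), which did not pass the exact sign-flip permutation test (p = 0.09375, adjusted 0.125). Among peaks with −log10 q of at least 5 it was 3.94 (exact p = 0.03125, not adjusted). Of 11 alternative settings, 2 gave an exact p below 0.05 for this difference. Those that left libraries out could not, as their smallest possible p was 0.0625 or 0.125. The median fold over background was 5.73, 5.52 and 4.54 against 5.79, 5.33 and 4.87 after insulin and 4.37, 3.95 and 4.15 against 4.58, 4.06 and 4.19 without it. It was lower in the stretch in 5 of 6 libraries, with a mean log2 ratio of -0.03 ± 0.05 (SD, n = 6; exact sign-flip permutation p = 0.1875, adjusted 0.214). With lists of equal length the ratio was -0.08 (exact p = 0.03125, not adjusted), and with each library left out it lay between -0.0463 (without insulin replicate 2) and -0.0169 (without insulin replicate 3). Of 10 alternative settings, 2 gave an exact p below 0.05 for the fold, and those with libraries left out again could not. When peaks were ranked by fold in place of −log10 q, the difference in percentile was -1.92, the opposite sign (exact p = 0.156). Among shared regions alone, ranked over those of the whole genome, the median percentile was higher in the stretch in 5 of 6 libraries, by a mean of 0.75 ± 1.32 points (SD, n = 6; exact sign-flip permutation p = 0.21875). The part of the background in the order of the peaks was not tested.

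**Figure D3:**
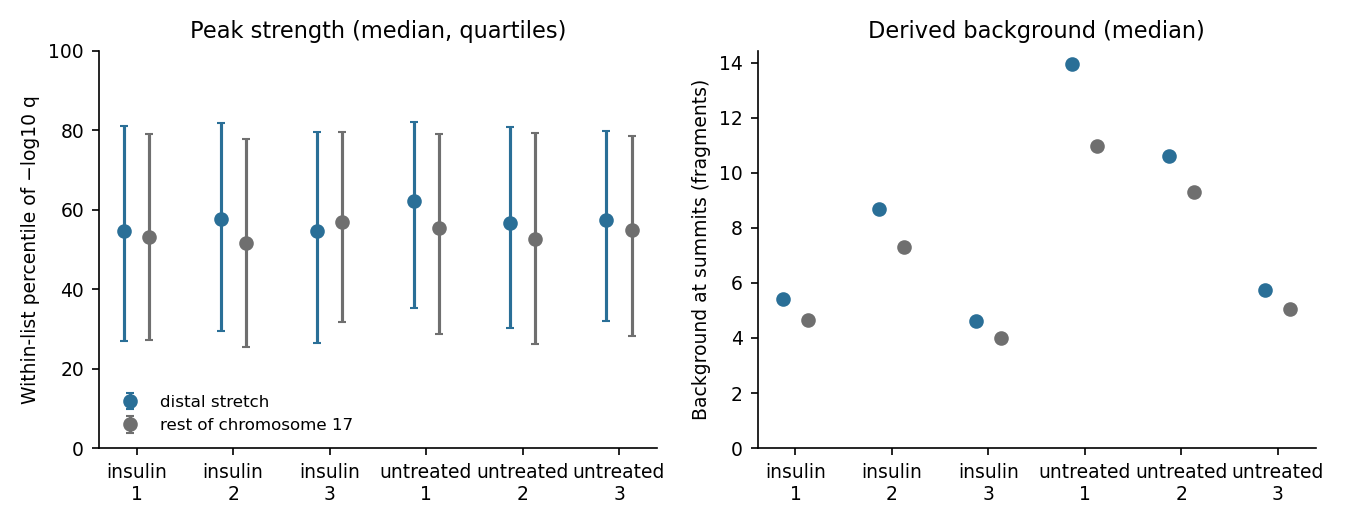
Left, within-list percentile of −log10 q (y axis; points are medians and bars reach the quartiles) for peaks of the stretch and of the rest of chromosome 17 in each library. Right, median background at summits in fragments; the stretch lies above the rest in all 6 libraries, while on the left it lies below in insulin replicate 3 and the quartile ranges overlap throughout.

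The strongest peaks of each list were also denser in the stretch. Among each list's 1000 strongest peaks by −log10 q, 20, 21 and 23 lay in the stretch after insulin and 21, 23 and 20 without it. This was 2.18 to 2.50 per Mb, against 0.694 to 0.889 per Mb on the rest of chromosome 17, a mean log2 ratio of 1.50 ± 0.20 (SD, n = 6; exact sign-flip permutation p = 0.03125, adjusted 0.05). The density of all peaks, with its log2 ratio of 1.10, enters this value. As a part of the peaks of each place, the 1000 strongest made up 3.33%, 3.91% and 6.07% in the stretch against 2.88%, 2.97% and 4.13% on the rest of the chromosome after insulin. Without insulin they made up 4.41%, 5.39% and 5.68% against 3.01%, 3.90% and 4.75%. The numbers in the 6 lists differed by no more than 3 peaks. Each list was cut at 1000 peaks, so its length, from 26082 to 48208 peaks, does not enter these numbers directly. In a shorter list the 1000 strongest are a larger part of all peaks, so the percentages are compared only within a list.

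The strongest site of the stretch was 79366929 to 79368365. Its fold over background was 87.4, 85.3 and 100.5 in insulin replicates 1, 2 and 3 and 36.6, 57.4 and 56.2 in untreated replicates 1, 2 and 3. It ranked 13th, 9th and 3rd in the insulin lists and 16th, 6th and 5th in the untreated ones, and its 6 summits fell within 11 bp. A separate shared region began only 390 bp further on, at 79368756 to 79369956. That neighbour had folds of 38.7, 34.8 and 32.8 after insulin and 14.8, 13.3 and 27.6 without it, with summits within 20 bp. The pair was therefore among the 5 strongest regions of the stretch with both of its members. Folds were higher in the insulin lists at both, but a fold is relative to the background of its own list, and the insulin lists had the higher median fold over the whole stretch as well. The ranks of both sites overlapped between treatments.

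The second site, 74260691 to 74263042, ranked between 14th and 66th in every list, with folds of 55.7, 62.6 and 50.4 after insulin and 35.8, 28.9 and 35.8 without it. At the third, 80655959 to 80657334, the 6 summits lay within 2 bp of each other. Its folds were 49.6, 56.9 and 39.7 after insulin and 31.2, 32.4 and 30.7 without it, while its ranks by −log10 q were 86, 56 and 44 after insulin and 41, 34 and 33 without it. Site 72425889 to 72428738, the most proximal of the 10 strongest, had folds of 45.3, 26.2 and 33.2 and then 16.4, 13.9 and 24.3. Of the 10 strongest, 4 lay between 72425889 and 75284286 and 6 between 79211856 and 80657334, with none in the 3.93 Mb between them.

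The other 5 of the 10 strongest were 80415103 to 80417463, 75282009 to 75284286, 80245602 to 80246533, 79211856 to 79214115 and 73850943 to 73852905, with folds between 8.49 and 44.8. The last of these had the poorest rank of any of the 10 in any list, 1039th in untreated replicate 3. All 6 ranks were within 1000 for the other 9, and no further region of the stretch met that.

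**Figure D4:**
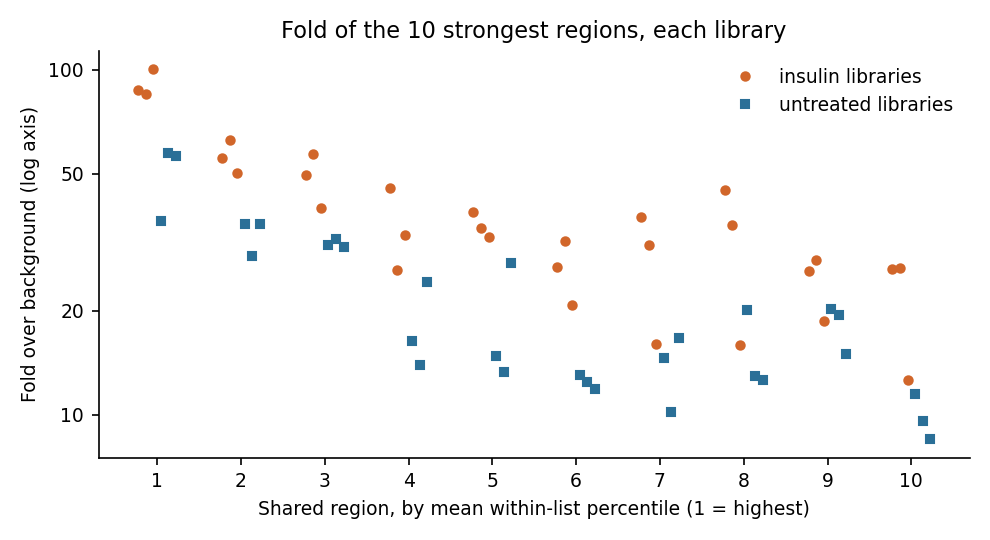
Fold over background (y axis, log scale) of the 10 strongest shared regions of the stretch, ordered by mean within-list percentile (x axis), with 1 point per library. Folds fall from a highest value of 100.5 at the strongest site to a lowest of 8.49 at the tenth; circles (insulin) stand mostly above squares (untreated), as they do for the lists as wholes.

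Shared regions also included weak ones. Of the 228, 57 (25%) had a mean percentile above 90 and 26 (11.4%) one below 50, against 21.4% and 14.1% of the 799 shared regions outside. The weakest was 73892115 to 73893319, with a mean percentile of 24.5 and folds of 3.28, 2.90 and 3.20 after insulin and 2.67, 3.45 and 3.25 without it. The next weakest were 80014685 to 80015543, 80342263 to 80343259, 75204040 to 75204870 and 79875625 to 79876327, with mean percentiles of 27.6 to 30.7. Summits at the weakest site were spread over 433 bp, against a median spread of 79 bp over the shared regions of the stretch and 88 bp outside it. Picked after its values were seen, the widest shared region, 80185969 to 80190338 (4370 bp), had a mean percentile of 90.5.

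The order of the 228 shared regions by −log10 q was alike in all libraries. Spearman's rho over these regions was between 0.797 and 0.914 for the 15 pairs of libraries. It averaged 0.838 over the 6 pairs of 1 treatment and 0.843 over the 9 pairs of different treatment. The pairs share sites and sequence, so these are descriptions. The highest value was that of insulin replicate 2 with untreated replicate 2, and every pair that held a replicate 3 library had a rho of 0.819 or less. Summits of a pair lay a median of 20.5 to 36 bp apart.

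No difference between treatments was detected in the part of FoxK1 peaks that fell in this stretch. It held 1.25%, 1.19% and 1.38% of the peaks of insulin replicates 1, 2 and 3 and 1.07%, 1.35% and 1.35% of those of untreated replicates 1, 2 and 3. The lowest value was that of untreated replicate 1, and the groups overlapped. The means were 1.27% ± 0.10 (SD, n = 3) and 1.25% ± 0.16 (SD, n = 3), a difference of 0.0178 percentage points (p = 0.8 by a two-sided exact permutation test, which cannot go below 0.1 with 3 against 3). The difference turned to -0.0351 without insulin replicate 3 and -0.0768 without untreated replicate 1, and lay between 0.0305 and 0.0654 without each of the other libraries in turn, so its sign rested on single libraries. The ratio of density in the stretch to that on the rest of the chromosome was 2.18 ± 0.24 after insulin and 2.11 ± 0.18 without it (SD, n = 3 each, exact permutation p = 0.8).

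Strength was compared between treatments by the percentile of −log10 q among the 15887 regions shared genome-wide, so that lists of different length were ranked over the same regions. The median over the 228 regions of the stretch was 57.6, 57.1 and 52.9 after insulin and 51.8, 57.5 and 53.8 without it, and the groups overlapped. The means were 55.9 ± 2.57 and 54.4 ± 2.93 (SD, n = 3 each), a difference of 1.52 percentile points (exact permutation p = 0.6, adjusted over 3 comparisons 0.8). It turned to -0.385 without untreated replicate 1 and -1.84 without untreated replicate 3. Leaving out insulin replicate 1, 2 or 3 gave 0.534, 0.761 and 0.170, and leaving out untreated replicate 2 gave 1.53.

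In 12 of the 228 regions all 3 insulin percentiles lay above all 3 untreated ones, and in 7 they lay below. This was 5.26% and 3.07%, near the 4.66% and 4.31% of all 15887 shared regions, and the other 209 regions overlapped between treatments. The region with the largest gain was 76743645 to 76745507, at percentiles of 66.2, 79.2 and 66.3 after insulin and 51.2, 61.3 and 26.6 without it, and its 6 summits were spread over 704 bp. Region 77905223 to 77906507 stood at 43.4, 32.8 and 36.8 against 16.2, 17.1 and 20.0. Region 74998110 to 74998950 stood at 33.1, 36.8 and 31.1 against 20.2, 15.7 and 10.8, region 78009787 to 78011179 at 81.1, 74.2 and 87.1 against 52.0, 72.5 and 65.1, and region 75278726 to 75279672 at 64.1, 66.1 and 68.3 against 41.4, 57.4 and 48.5.

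The largest loss was at 79550889 to 79551386, with percentiles of 11.1, 14.7 and 14.7 after insulin and 52.9, 15.8 and 71.0 without it, so 1 of the untreated libraries was close to the insulin ones. Region 74563587 to 74564402 stood at 40.6, 31.9 and 50.8 against 60.8, 79.5 and 59.0. Region 77752040 to 77752837 stood at 6.93, 12.2 and 21.6 against 23.9, 62.0 and 22.3. Regions 72209101 to 72209977 and 77899538 to 77901298 had mean differences, insulin minus untreated, of -18.9 and -11.4 percentile points. The other 2 of the 7 were the weakest shared site, 73892115 to 73893319, at 0.982, 0.806 and 2.33 against 3.46, 11.5 and 12.02, and the third strongest, 80655959 to 80657334, with a mean difference of -0.164 points. With 3 against 3 libraries no single region can fall below 0.1 in the exact permutation test, and no other test was run on single regions. Each library left out made the separation easier. Of 231 to 262 shared regions, between 20 and 29 then lay above and between 9 and 27 below. The share over all shared regions was not computed for these settings. With lists of equal length 13 of 202 shared regions lay above and 3 below. Where each library had to cover at least 50% of a region, 79 regions were shared, and 2 lay above and 3 below. The share over all shared regions was not computed there either, so no direction is read from these counts.

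**Figure D5:**
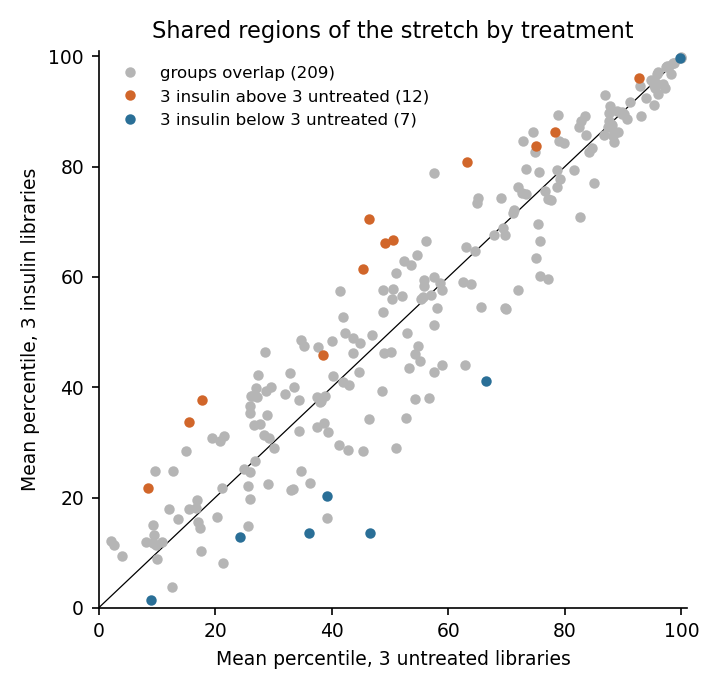
Mean percentile of −log10 q among shared regions in the 3 insulin libraries (y axis) against the 3 untreated libraries (x axis), 1 point for each of the 228 shared regions of the stretch; the line marks equal values. Orange (12 regions) and blue (7 regions) mark those whose 3 insulin values lie all above or all below the 3 untreated values; most points, in grey, lie close to the line.

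Of the 723 regions, 487 were called in both treatments, 180 in insulin lists alone and 56 in untreated lists alone, and 195 of the regions of 1 treatment came from a single library. The same split was not computed over all regions, so it is a description only. Of the 469 regions called in at least 2 insulin libraries and the 378 called in at least 2 untreated ones, 359 belonged to both, or 76.5% of those after insulin and 94.97% of those without it. Over all 68127 regions the 2 sets numbered 36996 and 29726, and 27475 belonged to both. The larger insulin set was thus found genome-wide and is not particular to the stretch. All 3 insulin libraries and no untreated library called 4 regions of the stretch (0.553%), where the share over all regions was 0.376%. None was called in 3 of 3 untreated libraries and no insulin one, where the share over all regions was 0.0352%. The 4 were 79319614 to 79320946, 80065322 to 80065737, 74637629 to 74638200 and 79104422 to 79104965. They had folds of 2.47 to 8.13 and within-list percentiles of 3.10 to 69.3. With lists of equal length the counts were 1 and 1. The count of insulin-only regions rose to between 6 and 31, of 665 to 710 regions, with a library left out, which makes the rule easier to meet. It was highest without insulin replicate 3. The share over all regions was not computed for these settings.

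By the wider rule of at least 2 libraries against none, 40 regions (5.53%) were found with insulin only and 1 without it only (0.138%), where the shares over all regions were 4.18% and 0.847%. Of the 40, 27 were called in insulin replicates 1 and 2, the 2 longest lists, and not in insulin replicate 3. Their median percentile was 19.4. The single region of the opposite kind was 73606386 to 73606765, called in untreated replicate 1 (fold 3.04) and untreated replicate 2 (fold 2.21). Whether the excess goes with treatment or with list length cannot be told apart by these counts.

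The replicate 3 lists differed from the others in the part of their peaks at the lowest background. Of the peaks of the stretch, 12.9% in insulin replicate 3 and 9.66% in untreated replicate 3 sat at their list's background floor (within 0.2% of its lowest background). This was 16.4% and 16.0% on the rest of chromosome 17 and 30.6% and 34.5% on other chromosomes. Among the other 4 lists at most 0.166% of the peaks of the stretch did so. The replicate 3 libraries alone called 56 regions of the stretch, 29 in insulin replicate 3, 24 in untreated replicate 3 and 3 in both, or 6.09 per Mb. On the rest of chromosome 17 the density of such regions was 2.68 per Mb. As a part of all regions they were 7.75% of the stretch, 6.62% of the rest of chromosome 17 and 9.28% of the genome. In untreated replicate 1 alone 16 regions (2.21%) were called, against 4.70% on the rest of chromosome 17 and 6.70% over the genome. In untreated replicate 2 alone it was 15 (2.07%), against 2.40% and 2.24%. Insulin replicate 1 alone had 62 (8.58%), against 9.22% and 9.53%, and insulin replicate 2 alone 49 (6.78%), against 7.58% and 6.96%.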

How the data were processed

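The data are peak lists of 6 FoxK1 immunoprecipitation libraries; the 6 input samples were not analysed here. Groups and replicate numbers come from the sample titles. Per the submitters' processing notes, fastp, Bowtie2, SAMtools and MACS2 were used with build hg19, with no versions, threshold or role of the inputs (not given in the sources used here). Each list holds the peaks of 1 library, per the peak names. All 6 lists stop at nearly the same unadjusted significance, with a smallest −log10 p of 3.002 to 3.005. Peaks of low percentile are therefore weak calls near this end of their list. The deposited fold is a linear ratio of summit over background, the deposited −log10 values (of p and of q) move with depth, and the deposited score is a rescaled −log10 p. These values of the authors were ranked only within a list, and no test compared them directly between lists. Folds set side by side for the treatments were not tested. Total read numbers are not given, so depth is unknown, and the derived fragments (median summits of 26 to 65.5 in the stretch) are the only measure of it.

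A region was called in a library when a peak of that library overlapped it, and took its strongest peak. Fragments k and background b solve fold = (k + 1) / (b + 1) and p = P(Poisson(b) > k). A whole k met both within 0.0005 on the −log10 scale (in proportion above 10) for 100% of the peaks, to 3 digits. Both steps were tested on simulated data. The test between treatments was a two-sided exact permutation over 20 assignments, and the stretch with the rest was compared by two-sided exact sign-flips over 64 sign sets. Percentiles between treatments were taken over regions of all 6 libraries. Over these regions the departures from the group mean correlated between same-numbered libraries at 0.123, 0.300 and 0.307. Between libraries of different number and treatment the correlations ran from -0.321 to 0.0933. The numbers were taken to pair the libraries only in the replicate block, a sign-flip over 3 pairs. The tests between treatments above did not use the pairing.

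The stretch, the lists and the tests were chosen with earlier results of these data known. Named regions are the 10 strongest and 5 weakest of all 6 libraries by mean percentile of −log10 q, up to 5 per direction of those in 3 of 3 against 0 of 3 libraries, up to 5 per direction of the largest differences without overlap, and the densest windows and longest gaps. Of 14 planned results 3 were not computed, because the RefSeq table at hand is on another build: the share at promoters, motifs at summits, and 9 gene lists. All 72 genes of these lists were found by symbol on chromosome 17 there, and none was tested. Alternatives left out each library, replicate 3 or weak peaks, equalised the lists, or changed the region rule or the reference; 1 was added after seeing the data. Python 3.11.15, numpy 2.4.6, pandas 2.3.3, scipy 1.17.1 and matplotlib 3.10.9 were used.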

Additional observations from a re-analysis of the deposited data

How the results depend on the processing

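With each library left out, the log2 density ratio lay between 1.06 and 1.13, and it was 1.04 without replicate 3 in both treatments; its exact p then could not go below 0.0625 or 0.125 (fewer libraries). The density ratio of shared regions was 1.76 with peaks covering 50% of a region and 4.26 against chromosomes 1 to 22 and X, and 2.20 to 2.31 with each library left out. With the rest counted only over 1 Mb windows with any region it was 2.11, and the log2 density ratio of peaks was 1.01. The share of shared regions, stretch minus rest, was -1.11 with 50% cover; the cause was not tested. The percentile difference was 3.94 with −log10 q of at least 5 and 7.26 against chromosomes 1 to 22 and X (exact p = 0.03125 each), -1.92 by fold and 2.45 to 4.26 with each library left out; the log2 fold ratio was -0.0832 with equal lists and -0.0577 against those chromosomes (exact p = 0.03125 each) and -0.0463 to -0.0169 with each library left out; the cause was not tested. The difference in share between treatments was -0.0768 to 0.0654 over the 6 omissions of a library and -0.0432 with −log10 q of at least 5; that in percentile was -1.84 to 1.53 over these omissions.

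Of 231 to 262 shared regions with each library left out, 20 to 29 had insulin all above untreated and 9 to 27 all below. Of 79 with 50% cover, 2 lay above and 3 below. Without replicate 3 the counts were 60 and 44 of 335, and with equal lists as well 55 and 39 of 295. Fewer libraries make the separation easier, and the share over all shared regions was not computed at these settings. Regions with insulin all below numbered 4 of 181 with −log10 q of at least 5 and 3 of 202 with equal lists, again without that share. Of 665 to 710 regions with each library left out, 6 to 31 were insulin-only and 0 to 1 untreated-only. The counts were 1 and 1 of 524 with equal lists and 40 and 1 of 675 without replicate 3. With both changes they were 12 and 8 of 504, the setting added after seeing the data. Here too the share over all regions was not computed. The replicate block left the differences at 0.0178 percentage points (exact sign-flip p = 0.75, with 0.25 the smallest for 3 pairs) and 1.52 percentile points (exact p = 1) and changed no call; it could not be applied to counts. Windows with any region cannot change percentile or fold and were not run for them. Depth, known only from the fragments, limits what weak regions show.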
